A study of Mus musculus with 4 samples.

Results

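The genes described here act in the response of cells to low oxygen and in mitophagy, the removal of mitochondria by autophagy. They are 5 protein-coding genes, Hif1a, Egln3, Ndrg1, Bnip3 and Bnip3l, and the annotated antisense genes Gm45507 and Gm17035, which lie inside Bnip3 and Ndrg1 on the other strand. The 7 genes, of 50600 in each file, were chosen by symbol to set the count per kb of exon on the 2 strands of each locus side by side in replicates 1, 3 and 4. The contrast between the strands therefore chose them, and it is described here without a test. Every gene identifier was found in the files.

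Gene counts came from RNA sequencing of primary T-helper 2 (Th2) cells of the mouse strain C57BL/6NJ, CD4 T cells that make interleukins such as Il4 and Il13. All 4 libraries formed a single group of biological replicates with no treatment, other genotype or control in the labels. Each replicate had its own biosample under the same donor identifier, the age was unknown and sex was not collected. By its labels the assay is total RNA sequencing, but the cited library protocol is named for poly(A)+ RNA. A protocol document on CD4 T cell differentiation is cited, and 72 h stands in the header of each file with no meaning given. Nothing in the labels says that the libraries came from separate animals, so p-values measure only how these samples vary, in part perhaps for technical reasons. All comparisons were between genes or between libraries.

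Cells sense oxygen through prolyl hydroxylases, among them the product of Egln3, which mark the alpha subunits of hypoxia-inducible factor for breakdown while oxygen is present. When oxygen falls, the subunit encoded by Hif1a pairs with the product of Arnt and binds DNA motifs with the core ACGTG or GCGTG near target genes, which include Egln3, Bnip3 and Ndrg1 themselves. Bnip3 and Bnip3l (also called Nix) encode proteins of the outer mitochondrial membrane that bind LC3-family proteins of the forming autophagosome and so act as mitophagy receptors. Ndrg1 encodes a cytoplasmic protein that is induced by hypoxia and cell stress. In activated T cells, Hif1a is known for its part in the switch to glycolysis, and mitophagy through Bnip3 and Bnip3l is known from the survival of memory natural killer cells.

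The stretches of the nested genes that lie on the coding bases of their host are shown first, because the contrast between the strands rests on exons that the 2 genes share. Gm45507 (chr7:138890964-138894675, plus strand, mm10) has 3 exons with 519 bases, of which 504 (97.1%) lie in exons of Bnip3 (chr7:138890836-138909519, minus strand, 2265 exonic bases in 6 blocks). Its exon 1, of 342 bases, lies wholly in the 3′ UTR of Bnip3, and its exon 2, of 96 bases, lies wholly on Bnip3 coding bases. Exon 3, of 81 bases, has 66 bases on the Bnip3 coding sequence and 15 outside any Bnip3 exon. Gm17035 (chr15:66929607-66931107, plus strand) has 2 exons with 419 bases, all of them in exons of Ndrg1 (chr15:66929321-66969640, minus strand, 6593 exonic bases in 16 blocks). Its exon 1, of 90 bases, lies on UTR bases of Ndrg1, while exon 2, of 329 bases, covers 241 coding and 88 UTR bases. The sequences below are from the GENCODE vM21 transcripts, 5′ to 3′ on the plus strand, at chr7:138894417-138894512, chr7:138894595-138894675 and chr15:66930867-66931107, and capitals mark the 15 bases outside Bnip3 exons.
Gm45507 exon 2: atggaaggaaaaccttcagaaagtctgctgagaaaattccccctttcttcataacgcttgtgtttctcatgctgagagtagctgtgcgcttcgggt
Gm45507 exon 3: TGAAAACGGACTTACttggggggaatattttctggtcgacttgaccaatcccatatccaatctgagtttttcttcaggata
Gm17035 exon 2, coding part: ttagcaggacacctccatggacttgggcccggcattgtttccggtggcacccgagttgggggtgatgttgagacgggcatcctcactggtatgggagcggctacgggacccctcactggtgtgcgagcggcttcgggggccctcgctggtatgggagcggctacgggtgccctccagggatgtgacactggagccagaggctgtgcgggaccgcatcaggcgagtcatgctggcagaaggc
Read on the other strand, each lower-case base above is a base of the host's own spliced transcript.

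The introns of the nested genes were not those of their hosts. Intron 1 of Gm45507 (3111 bases, chr7:138891306-138894416) overlaps a Bnip3 intron at chr7:138891961-138894379 without sharing an end with it, and intron 2 (82 bases, chr7:138894513-138894594) overlaps one at chr7:138894530-138894609 in the same way. The only intron of Gm17035 (1082 bases, chr15:66929697-66930778) lies inside a single Ndrg1 exon. The annotated edges are shown where the host's transcript covers both sides, with 12 bases on each side of the edge and the outermost 2 intron letters in capitals, because splice sites are read from these letters.
Gm45507 intron 1, start: cccaaggtaatgGTggacagcaag
Gm45507 intron 1, end: acagtaacagAGatggaaggaaaa
Gm45507 intron 2, start: tgcgcttcgggtGTttaaaaagga
Gm17035 intron 1, start: catgggcattagGCtggcattgct
Gm17035 intron 1, end: aagcagctttAGattaataccgca
On the plus strand the introns of Gm45507 open with GT and that of Gm17035 with GC, and those readable at the end close with AG. GT and AG are the usual letters of splice sites, while GC is a less usual start. The files hold counts per gene and none per splice junction, so use of these introns could not be measured.

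Promoter sequence was shown for the genes that sense or answer low oxygen, because the core motif of hypoxia-inducible factor can be read there. RefSeq promoters (GRCm38.p6) were matched for 3 of the 7 members, and the 250 bases before the annotated RefSeq start are printed 5′ to 3′ on each gene's own strand. They lie at chr7:138909507-138909756 (minus strand, Bnip3), chr12:54203875-54204124 (minus strand, Egln3) and chr12:73907617-73907866 (plus strand, Hif1a). Capitals mark ACGTG and GCGTG on either strand, and a CACGTG reads as ACGTG on both strands.
Bnip3: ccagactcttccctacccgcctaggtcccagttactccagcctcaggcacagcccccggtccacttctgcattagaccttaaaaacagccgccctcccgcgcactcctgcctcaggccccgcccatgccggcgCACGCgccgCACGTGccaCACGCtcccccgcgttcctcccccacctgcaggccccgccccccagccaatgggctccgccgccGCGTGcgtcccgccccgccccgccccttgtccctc
Egln3: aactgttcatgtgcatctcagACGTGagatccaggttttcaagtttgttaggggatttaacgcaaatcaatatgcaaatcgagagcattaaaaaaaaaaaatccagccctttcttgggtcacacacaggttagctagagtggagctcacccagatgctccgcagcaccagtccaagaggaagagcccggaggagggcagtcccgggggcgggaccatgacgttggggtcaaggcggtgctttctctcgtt
Hif1a: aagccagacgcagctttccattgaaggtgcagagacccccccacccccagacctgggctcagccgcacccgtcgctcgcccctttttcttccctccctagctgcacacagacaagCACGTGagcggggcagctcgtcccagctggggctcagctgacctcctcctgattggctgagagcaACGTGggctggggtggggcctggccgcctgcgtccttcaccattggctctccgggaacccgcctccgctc
Counting both strands, the Bnip3 window held 5 matches, the Egln3 window 1 and the Hif1a window 3. In 32851 RefSeq promoter windows of the same length, 16.6% held ACGTG, 28.2% held GCGTG and 38.6% held either, so that a match is common. A match is a run of letters and no measure of binding.

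The libraries differed in depth and in their make-up, which bears on every value below. Replicates 1, 3 and 4 held 2388255, 1929880 and 1713199 gene counts, while replicate 2 held 5016 and was left out of levels and tests except where it is named. Counts were taken on 1 strand only (strand setting 1, per the file headers), and 90.7% to 94.2% of them in replicates 1, 3 and 4 fell in genes whose exons overlap exons of a gene on the opposite strand. Such genes were 8189 of the 50600 in each file. The sources used here do not give which strand the kit reads. Whether a count on the strand of a nested gene came from its own RNA or from RNA of its host therefore cannot be told apart. For the same reason, it is not known whether the levels and ranks below, those of genes without a partner such as Egln3, Bnip3l and Atg7 included, count a gene's own RNA or the strand opposite to it. Of the Th2 markers, 4 of 4 had counts in each of replicates 1, 3 and 4, with a summed level of 72.6 to 144 TPM (a share of all counts, corrected for exon length and scaled to the same total in each library), and 6 of 6 T cell markers had counts there, with a sum of 26.2 to 96.7 TPM. The natural killer markers Ncr1 and Klrb1c, the B cell marker Ms4a1, the erythroid markers Hba-a1 and Hbb-bt, the myeloid marker Itgam and the stromal marker Col1a1 were at 0 counts in these 3 libraries. Other markers of other cells did have counts. Csf1r, a macrophage receptor with the gene Hmgxb3 opposite, stood highest at 140 ± 9.75 TPM (SD, n = 3). The endothelial marker Pecam1, without a partner, had 80, 69 and 79 counts in replicates 1, 3 and 4, the erythroid marker Alas2, with Apex2 opposite, 36, 35 and 27, and the B cell marker Cd79a 5, 11 and 17. All 4 were called above 1 TPM by the limma test used below for pathway genes. Among the Th2 and T cell markers, Gata3, Il5 and Cd3e also have a gene opposite them (Gm13256, Gm12214 and Gm48719).

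The host genes and their nested genes differed by more than 3 orders of magnitude in count per kb. Bnip3 had 10 counts in replicate 1, 0 in replicate 2, 5 in replicate 3 and 6 in replicate 4. Gm45507 had 3069, 3, 3566 and 1840 counts in the same order. Per kb of exon, Bnip3 thus stood at 4.42, 2.21 and 2.65 counts in replicates 1, 3 and 4 against 5913, 6871 and 3545 for Gm45507. The strands did not overlap in any of these libraries, and the Bnip3 strand was a small remainder in each. The density of Bnip3 was 0.0747%, 0.0321% and 0.0747% of that of Gm45507, which gave a mean log2 ratio of -10.69 ± 0.68 (SD, n = 3, with 0.5 added to each count). Pooled over the 3 libraries, 21 counts on Bnip3 stood against 8475 on Gm45507, and the density of the nested gene was 1761-fold higher (exact 95% interval 1151 to 2847). Fragments carried no molecular identifiers, so intervals cover counting error only.

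The same contrast was wider at Ndrg1. Ndrg1 had 15, 0, 5 and 12 counts in replicates 1 to 4, and Gm17035, nested in its last part, had 2391, 1, 2549 and 1522. Per kb, Ndrg1 stood at 2.28, 0.758 and 1.82 in replicates 1, 3 and 4, and Gm17035 at 5706, 6084 and 3632. Every library with depth placed the long host below the short nested gene. The density of Ndrg1 was 0.0399%, 0.0125% and 0.0501% of that of Gm17035, with a mean log2 ratio of -11.66 ± 1.03 (SD, n = 3). Pooled counts were 32 against 6462, a 3178-fold higher density of the nested gene (exact 95% interval 2249 to 4649). A fragment was counted for a gene when any part of it lay in an exon, so genes as short as Gm45507 and Gm17035 also take fragments that reach past their ends, and their density per kb is raised by this to an extent that was not tested. Of all counts on either strand, Bnip3 held 0.14% (Wilson 95% interval 0.0598% to 0.327%) and Ndrg1 0.196% (0.0836% to 0.457%) in replicate 3, the lowest share of both.

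**Figure D1:**
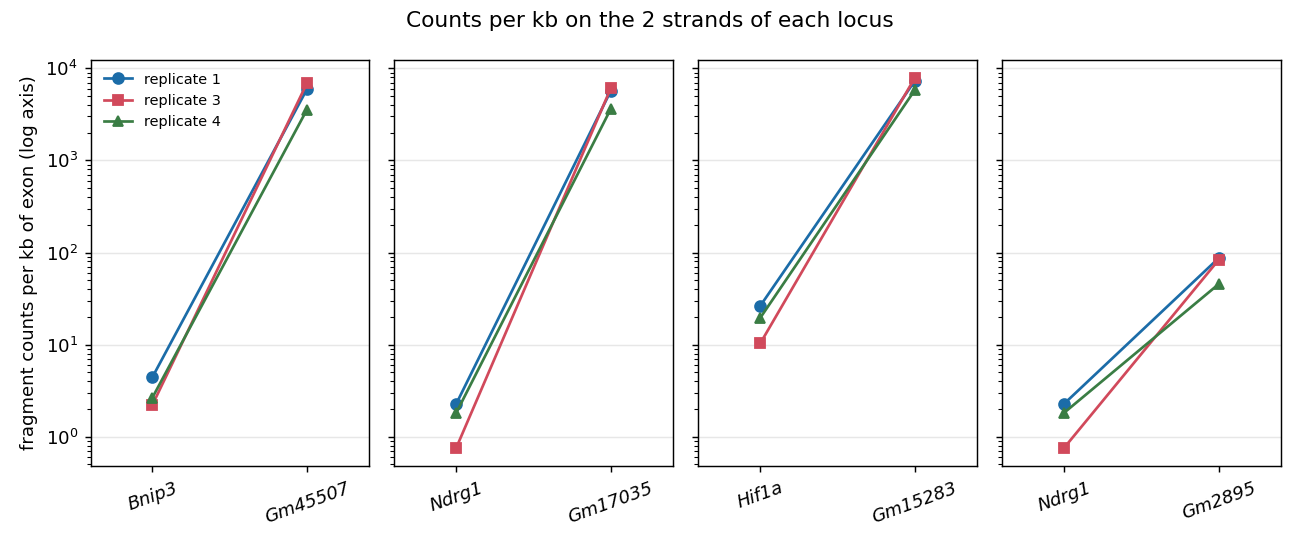
Fragment counts per kb of exon (log axis) for the member genes and the genes opposite them, with a line for each of replicates 1, 3 and 4. In each panel the annotated antisense or divergent gene lies above the protein-coding gene in all 3 libraries. In pooled counts it does so by 44.4-fold at Ndrg1 with Gm2895 and 3178-fold at Ndrg1 with Gm17035. Only 4.29% of the exonic bases of Gm2895 lie in Ndrg1 exons.

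Genes with less overlap showed the contrast too. Hif1a (chr12:73901375-73947530, plus strand, 5896 exonic bases in 15 blocks) shares 330 bases, 5.6% of its exons, with the antisense gene Gm15283 (chr12:73926481-73949785, minus strand). Hif1a had 155, 0, 61 and 115 counts in replicates 1 to 4. Gm15283 had 10575, 8, 11394 and 8412. Although only 22.7% of the exonic bases of Gm15283 lie in Hif1a exons, its density was 373-fold higher in pooled counts (exact 95% interval 335 to 417). Ndrg1 also faces Gm2895, annotated as a lncRNA of a bidirectional promoter (chr15:66969323-67013039, plus strand), over 137 bases. These are 4.29% of the exonic bases of Gm2895, so most bases counted for it do not lie opposite Ndrg1 exons. Gm2895 had 278, 0, 266 and 145 counts, and its density was 44.4-fold that of Ndrg1 (exact 95% interval 31.2 to 65.5). Bnip3l (chr14:66985239-67008877, minus strand) and Egln3 (chr12:54178981-54203860, minus strand) have no annotated exon opposite them, so that no second strand was counted there.

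The contrast at Bnip3 and Ndrg1 was common among the nested pairs that had enough counts. In all, 164 pairs had an inner gene whose exons lay to 90% or more within exons of an opposite-strand protein-coding gene, and 300 or more counts together. The outer gene had the lower density in all 3 libraries in 148 of them (90.2%). A pair could reach 300 counts through its nested gene alone, as those of Bnip3 (21 pooled counts) and Ndrg1 (32) did. The share therefore describes the pairs kept and is no test of the contrast. The median density of the outer gene was 0.264%, 0.123% and 0.247% of that of the nested gene in replicates 1, 3 and 4. The median of the mean log2 ratios was -8.85, with quartiles of -10.15 and -5.24. Both pairs described here lay below the lower quartile: counted from the lowest ratio, Ndrg1 with Gm17035 was number 10 and Bnip3 with Gm45507 number 31 of 164. By root mean square difference of the 3 log2 ratios, the pairs nearest to Bnip3 with Gm45507 were Rfx7 with Gm27232 (0.23) and Ppp2ca with Gm24157 (0.24). Nearest to Ndrg1 with Gm17035 were Cbll1 with Gm29542 (0.21) and Rhoa with Gm37401 (0.50). Cbll1 had 0 counts in replicate 3, so its ratio there, and with it the nearness, rests on the 0.5 added to each count. Some pairs at the lowest ranks, such as Zfp346 with Gm17617, also had an outer gene without counts in a library.

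**Figure D2:**
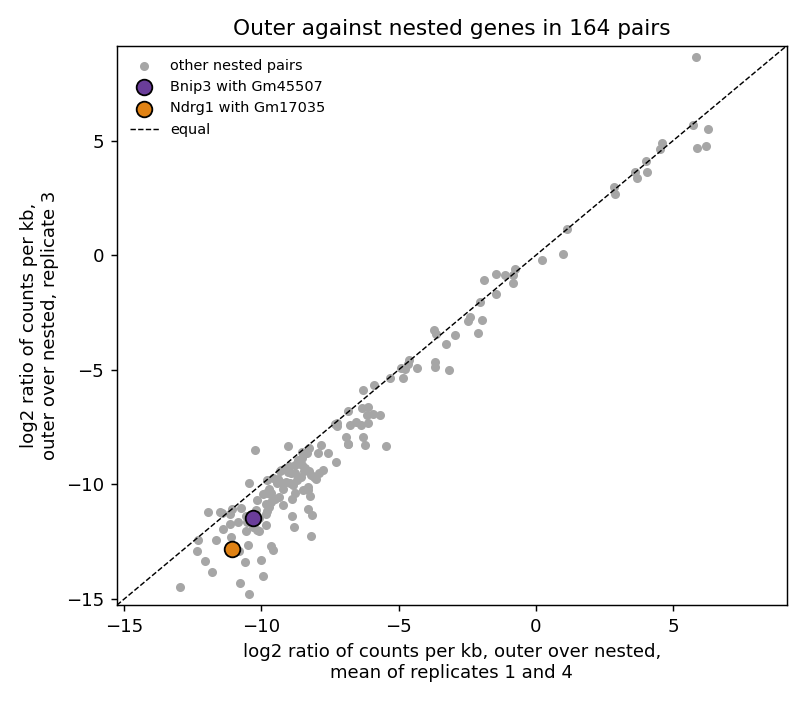
Log2 ratio of counts per kb, outer over nested gene, in replicate 3 (y) against the mean of replicates 1 and 4 (x) for 164 nested pairs, with a dashed line of equal ratios. Bnip3 with Gm45507 and Ndrg1 with Gm17035 lie in the lower part of the cloud and below the line. They are among the 119 pairs whose ratio was lowest in replicate 3, all of which lie below the line, as do some others.

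On the length-corrected TPM scale, the members fell into 2 sets, nested genes at 2990 TPM or more and protein-coding genes at 16.5 TPM or less. Gm45507 stood at 3540, 5015 and 2990 TPM in replicates 1, 3 and 4 (3848 ± 1047, SD, n = 3), rank 35 of all genes. Gm17035 stood at 3416, 4440 and 3064 TPM (3640 ± 715), rank 37. The nested genes overlapped in range and did not differ beyond their spread. Gm15283, opposite Hif1a, was higher still at 4363, 5731 and 4890 TPM (4995 ± 690), rank 23, while Gm2895 stood at 50.4 ± 11.3 TPM.

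Hif1a was the highest of the protein-coding members, at 15.7, 7.55 and 16.5 TPM in replicates 1, 3 and 4 (13.2 ± 4.95, SD, n = 3). Egln3, the prolyl hydroxylase, followed at 8.32, 1.65 and 5.39 TPM (5.12 ± 3.35). Hif1a was above Egln3 within each library, although their ranges over libraries overlapped. The mitophagy receptor Bnip3l stood at 3.57, 1.32 and 3.06 TPM (2.65 ± 1.18), and its relative Bnip3 at 2.64, 1.61 and 2.23 TPM (2.16 ± 0.52). Egln3 and Bnip3l, and likewise Bnip3l and Bnip3, overlapped in range and did not differ beyond their spread. Within each library Egln3 was above Bnip3l, in replicate 3 on 6 against 7 counts. Bnip3l was above Bnip3 in replicates 1 and 4 but below it in replicate 3. Ndrg1 was lowest at 1.36, 0.554 and 1.54 TPM (1.15 ± 0.524). Its range lay just below that of Bnip3, but both rest on 5 to 15 counts per library. In these bulk samples, fewer cells with a transcript and less of it per cell cannot be told apart.

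**Figure D3:**
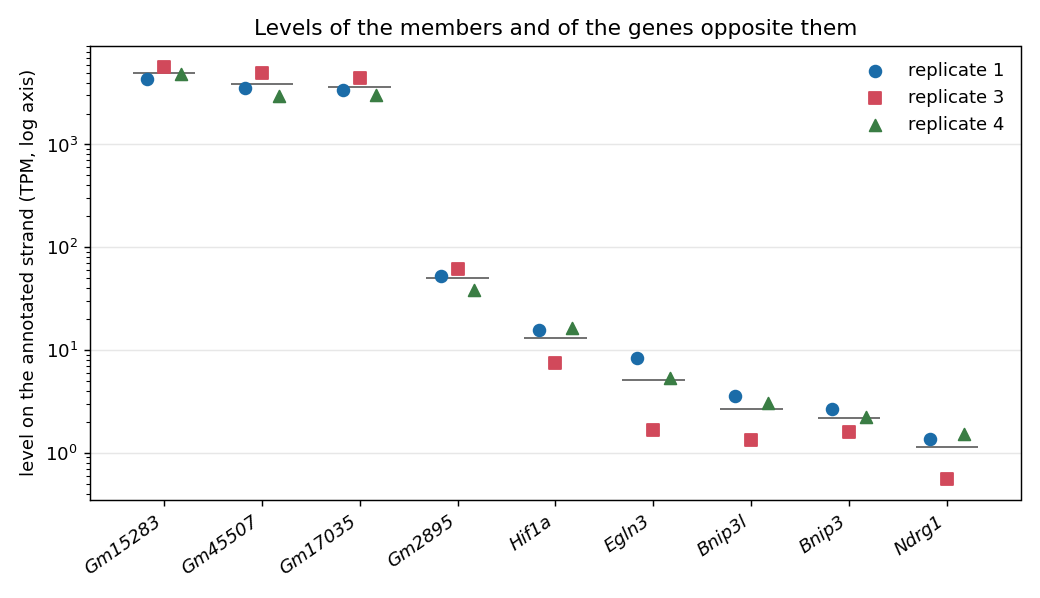
Level in TPM (log axis) of the members, and of Gm15283 and Gm2895 opposite them, in replicates 1, 3 and 4, with the mean as a bar. Replicate 3 is the highest library for the 4 antisense or divergent genes and the lowest for the 5 protein-coding genes.

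TPM is a share of all counts, most of which fell in genes with an opposite-strand partner. Among genes without opposite-strand exons alone, which held 221170, 111566 and 148525 counts in replicates 1, 3 and 4, Egln3 stood at 117, 29.7 and 78.4 TPM (75.2 ± 43.9, SD, n = 3) and Bnip3l at 50.4, 23.9 and 44.5 TPM (39.6 ± 13.9). These values are far above those on the scale of all genes, because fewer counts share the total. Replicate 3 was the lowest library for both genes on either scale.

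The genes whose levels were most like a member's over the 3 libraries were found by the root mean square difference of log2(TPM + 0.1), among genes with a mean count of 10 or more. Gm45507 and Gm17035 were each other's nearest gene, at 0.11, and within 0.25 there was 1 gene for Gm45507 and 6 for Gm17035. Nearest to Hif1a was Cct7, a chaperonin subunit, with 15.5, 7.65 and 16.1 TPM, and 42 genes lay within 0.25. Nearest to Bnip3l was the kinase gene Vrk1, with 112 genes within 0.25. The nearest gene was Pik3ca, a lipid kinase, for Ndrg1 (56 within 0.25) and Snrpe, a splicing factor, for Egln3 (25 within 0.25). With 3 libraries and low counts, many genes share such a pattern.

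Between libraries, the nested genes Gm45507 and Gm17035 were called higher in replicate 3 than in replicates 1 and 4, and Hif1a and Egln3 were called lower. Of the 7 members, 6 passed the filter of a mean count of 10 or more, and Bnip3, with a mean of 7, was not tested. Each library was compared with the other 2 by edgeR's quasi-likelihood test with Benjamini-Hochberg adjustment over 6922 genes. A lone library has no replicate of its own, so it is taken to have the spread of the other pair, and a call sets libraries and not conditions apart. The biological coefficient of variation, estimated from that pair alone, was 0.141 with replicate 3 as the lone library, against 0.31 with replicate 1 and 0.337 with replicate 4. In replicate 3, 4 of the 6 tested members were called, against 15.2% of all genes tested (2.79% higher and 12.4% lower). No member was called in replicate 1 or replicate 4, where 0.0289% and 0.0433% of genes were called.

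Gm45507 was higher in replicate 3 by 0.78 ± 0.11 on the log2 scale (SE; edgeR adjusted p = 5.71e-10). Gm17035 was higher by 0.62 ± 0.12 (edgeR adjusted p = 1.46e-05). The partner genes moved the same way: Gm15283 was higher by 0.47 ± 0.09 (edgeR adjusted p = 3.85e-06) and Gm2895 by 0.58 ± 0.21 (edgeR adjusted p = 0.0402). The genes opposite the members were thus all higher in replicate 3, while 31.6% of tested genes with opposite-strand exons had their highest TPM there. With replicate 2 added, the log2 differences were larger and no longer passed, at 1.01 for Gm45507 (adjusted p = 0.289), 0.82 for Gm17035 (adjusted p = 0.313), 0.91 for Gm15283 (adjusted p = 0.627) and 0.64 for Gm2895 (adjusted p = 0.151). Without replicate 1, the log2 difference of Gm2895 was 0.92. DESeq2 also lost the calls on Gm15283 (adjusted p = 0.0543) and Gm2895 (adjusted p = 0.339), and its size factors in edgeR that on Gm2895 (adjusted p = 0.0502).

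Hif1a was lower in replicate 3, with a log2 difference of -0.93 ± 0.31 (SE; edgeR adjusted p = 0.0257), and Egln3 with one of -1.90 ± 0.64 (edgeR adjusted p = 0.0271). Bnip3l and Ndrg1 had log2 differences of -1.16 ± 0.66 and -1.20 ± 0.76 and did not pass (edgeR adjusted p = 0.23 and 0.281). All 5 protein-coding members had their lowest TPM in replicate 3, as did 76.0% of the tested genes without opposite-strand exons and 41.8% of those with them. The median log2 difference in replicate 3 was -0.82 for genes without and 0.12 for genes with opposite-strand exons. In a fit on the 3060 genes without opposite-strand exons, Egln3 had a log2 difference of -1.07 ± 0.70 (edgeR adjusted p = 0.383) and Bnip3l one of -0.33 ± 0.69 (edgeR adjusted p = 0.824), so the call on Egln3 was lost against genes of its own class. The call on Hif1a was lost with DESeq2's size factors in edgeR (adjusted p = 0.0762), with a mean count of 1 or more (adjusted p = 0.0775), with replicate 2 added (adjusted p = 0.114) and in DESeq2 (adjusted p = 0.398), and that on Egln3 with those size factors (adjusted p = 0.0685). The log2 difference of Hif1a was between -0.87 and -0.82 in these 4 alternatives, and that of Egln3 was -1.80 with those size factors. DESeq2 gave no adjusted p-value for Egln3, Bnip3l and Ndrg1, so it made no call on them. Of the 6 T cell markers, Cd3g, Cd4 and Trac were called lower in replicate 3 as well, while Cd3d, Cd3e and Trbc2 were not called. Of the 4 Th2 genes, Gata3 and Il13 were called lower, Il5 was not called, and Il4 stood highest in replicate 3, at 31.7, 47.6 and 40.6 TPM, without a call (edgeR adjusted p = 0.212). In the fit within genes without opposite-strand exons, Cd3g, Cd4, Trac and Il13 lost their calls (edgeR adjusted p = 0.43, 0.657, 0.324 and 0.065), and Il4 was called higher by 1.41 ± 0.38 (edgeR adjusted p = 0.0143). The part of cell make-up in the result was not tested.

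**Figure D4:**
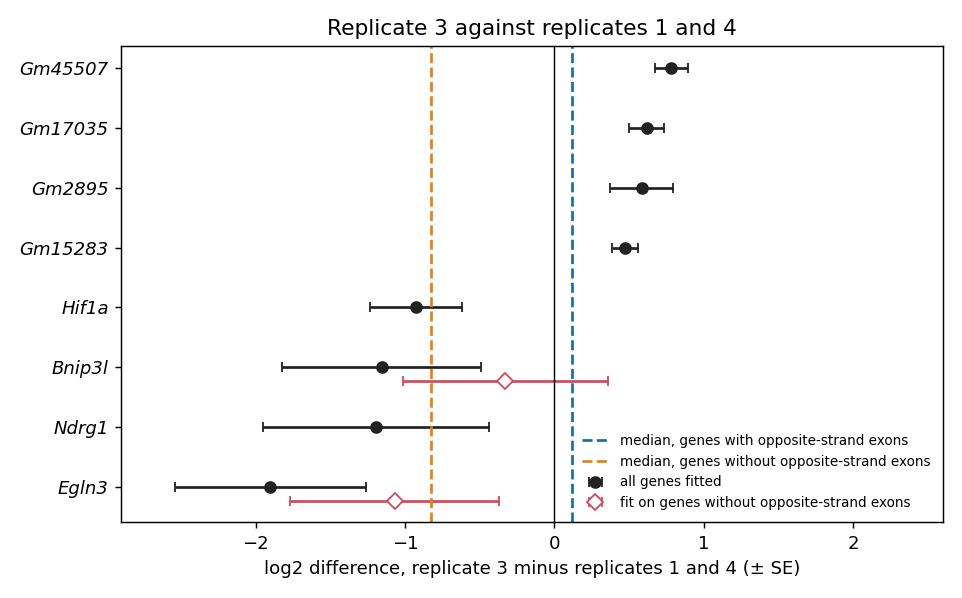
Log2 difference of replicate 3 from replicates 1 and 4 with its SE for the 6 tested members, Gm15283 and Gm2895, from the edgeR fit on all genes (filled) and on genes without opposite-strand exons (open), with the medians of both classes as dashed lines. The antisense and divergent genes lie between 0.47 and 0.78 and the filled points of the protein-coding genes between -1.90 and -0.93, while the open points are at -1.07 for Egln3 and -0.33 for Bnip3l.

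The ratio between the strands shifted with this. From the mean of replicates 1 and 4 to replicate 3, the log2 ratio of host to nested gene fell by 1.17 at Bnip3 and by 1.76 at Ndrg1. Over the 164 nested pairs the median shift was -0.74, with quartiles of -1.41 and -0.18, and the ratio was lowest in replicate 3 in 72.6% of them. The Ndrg1 pair lay beyond the lower quartile and the Bnip3 pair within the quartiles.

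Other genes of the pathways were read on their annotated strand, from lists of 71 distinct genes that include the protein-coding members. A level above 1 TPM was called by limma on log2(TPM + 0.1) with Benjamini-Hochberg adjustment for 43.1% of 14282 genes tested, and a level below 1 TPM for 8.31%. The lists were chosen with results of these data known, and their counts are descriptions. Calls on list genes in replicate 3 stand beside 12.4% of all genes tested called lower and 2.79% called higher there. They come from the main edgeR fit and rest on as few as 1 count in replicate 3. Apart from the fit on genes without opposite-strand exons, the alternatives are given for the members only, so these calls are no firmer than those on Hif1a and Egln3.

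Of 13 genes of oxygen sensing, 11 had enough counts, 5 were above 1 TPM and 0 below, and the median level was 2.25 TPM, against 0.173 TPM for all 21764 protein-coding genes. Elob, an elongin subunit of the ligase that breaks down hypoxia-inducible factor, stood at 14.9 ± 8.45 TPM (SD, n = 3), and it shares 2 bases with Srrm2 on the other strand. Epas1, the other main alpha subunit, stood at 7.46 ± 2.17 TPM and the prolyl hydroxylase gene Egln1 at 3.28 ± 1.54 TPM, both without an opposite-strand partner. Arnt, the partner of both alpha subunits, stood at 0.976 ± 0.631 TPM. Vhl, which encodes the subunit that recognises the hydroxylated factor, had 1, 1 and 0 counts in replicates 1, 3 and 4, at or under the floor of 3 counts in each. The filter of 3 or more counts in all left out Vhl and Hif3a, which had 2 counts each. Without it, both were called below 1 TPM (limma adjusted p = 0.0293 and 0.00863). In replicate 3, 3 of 7 tested genes of this list were called lower, Hif1a, Egln3 and Cul2, and 0 higher. Cul2, the cullin of the same ligase, had 21, 3 and 25 counts and a log2 difference of -2.70 ± 0.77 (edgeR adjusted p = 0.00787).

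Of 23 hypoxia target genes, 10 of 22 tested were above 1 TPM and 1 below, with a median of 2.11 TPM. The highest was Car9, a carbonic anhydrase of the cell surface, with 50, 64 and 47 counts (16.8 ± 3.66 TPM, SD, n = 3). Its opposite-strand partner Gm12454 had only 0, 1 and 1 counts. Bhlhe40, a transcriptional repressor, followed at 17.9, 4.5 and 13.4 TPM, with 0610040F04Rik opposite. Of the genes without a partner, Stc2, a secreted glycoprotein gene, stood at 8.72 ± 1.78 TPM and Ero1l, an oxidase gene of the endoplasmic reticulum, at 5.55 ± 2.07 TPM. Higd1a, whose protein sits in the inner mitochondrial membrane, stood at 5.27 ± 3.08 TPM. Of the tested genes, Egln3 and Bhlhe40 were called lower in replicate 3, a share near that of all genes tested, and no gene was called higher. Bhlhe40 had 141, 29 and 75 counts and a log2 difference of -1.64 ± 0.36.

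Of 18 mitophagy receptors and regulators, 6 of 17 tested were above 1 TPM and 1 below, with a median of 1.22 TPM. Sqstm1, which encodes the p62 receptor that links ubiquitin to autophagosomes, stood at 52.1 ± 3.7 TPM (SD, n = 3), and Usp30, a deubiquitinase gene of the outer mitochondrial membrane that restrains mitophagy, at 33.5 ± 2.41 TPM. Both lie opposite genes with few counts: Mrnip had 2, 7 and 4 against 276, 234 and 224 on Sqstm1. Fkbp8, a receptor of the same membrane, stood at 8.74 ± 2.45 TPM and Pptc7, a mitochondrial phosphatase gene that restrains Bnip3 and Bnip3l, at 7.96 ± 0.7 TPM. Both Sqstm1 and Usp30 were far above Bnip3 and Bnip3l in every library. Nbr1, a receptor related to p62, had 22, 3 and 18 counts and was called lower in replicate 3 (log2 difference -2.48 ± 0.80, edgeR adjusted p = 0.0202). Tax1bp1, another such receptor, had 44, 11 and 29 and was called lower as well (-1.49 ± 0.54, edgeR adjusted p = 0.0433), and 0 of the 9 tested were called higher. The receptor gene Calcoco2 had 0 counts in each library, which allows up to 1.26, 1.55 and 1.75 CPM (counts scaled to the library total) in replicates 1, 3 and 4.

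Of 15 genes of autophagosome formation, 5 were above 1 TPM and 2 below, with a median of 1.52 TPM. Atg7, the enzyme that activates LC3-family proteins, was the highest at 54.6 ± 2.53 TPM (SD, n = 3), and it has no opposite-strand exons. Gabarapl1, an LC3-family gene, stood at 7.22 ± 1.89 TPM and Becn1, which encodes a subunit of the lipid kinase that starts the membrane, at 6.36 ± 0.967 TPM. Atg13, of the kinase complex upstream, stood at 2.17 ± 0.157 TPM. In replicate 3, Gabarap with 22, 3 and 12 counts (log2 difference -2.22 ± 0.82, edgeR adjusted p = 0.0461) and Rb1cc1 with 15, 1 and 14 counts (-3.51 ± 1.07, edgeR adjusted p = 0.0138) were called lower. Atg9a, a membrane protein gene, had 16, 28 and 6 counts and was called higher (1.58 ± 0.52, edgeR adjusted p = 0.025), so that this list moved in both directions.

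Of the relatives of the members, Bnip2 was at 3.42 ± 1.55 TPM (SD, n = 3) and was the only of the 5 called above 1 TPM. Ndrg2 stood at 1.49 ± 0.775 TPM, Bnip1 at 0.724 ± 0.396, Ndrg4 at 0.5 ± 0.31 and Ndrg3 at 0.435 ± 0.406. None of the 5 was called below 1 TPM, and Bnip2, the only of them tested between libraries, did not pass in replicate 3 (log2 difference -1.18 ± 0.62, edgeR adjusted p = 0.186). In replicate 3 the median log2 difference of tested genes was -1.59 for oxygen sensing, -1.20 for hypoxia targets, -0.77 for mitophagy and -0.11 for autophagosome formation, beside -0.11 for all genes and -0.82 for genes without opposite-strand exons. In the fit within that class, none of the list genes it held was called. List genes with opposite-strand exons, such as Hif1a and Bhlhe40, were not in that fit.

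**Figure D5:**
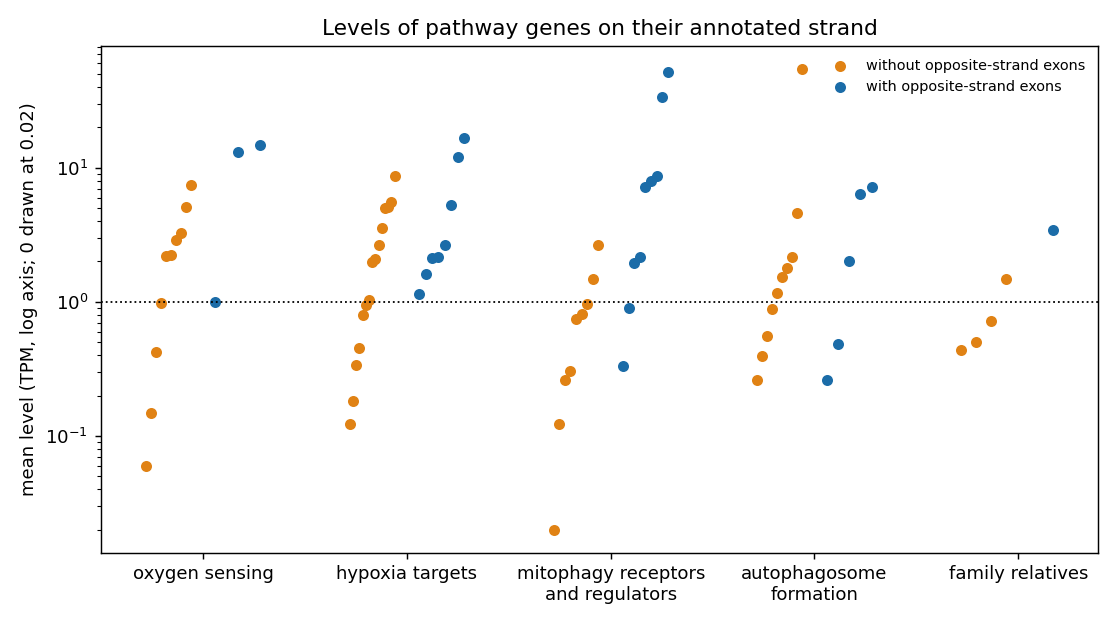
Mean TPM over replicates 1, 3 and 4 (log axis) of each gene of the 5 lists on its annotated strand, split by whether it has opposite-strand exons, with a dotted line at 1 TPM. Medians run from 0.724 TPM for the family relatives to 2.25 TPM for oxygen sensing, with Atg7 at 54.6 and Sqstm1 at 52.1 as the highest points.

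The strand contrast of Bnip3 and Ndrg1 recurred at other genes of these lists. Outside the members, 22 genes with an opposite-strand partner made 24 pairs. The gene had the lower count per kb in replicates 1, 3 and 4 in 18 of them, the higher in 5 and neither in 1. Overlaps ran down to 2 bases, unlike those of the nested pairs above. The share over all pairs of opposite-strand genes was not computed, so these counts do not set the listed genes apart from others. Mxi1, a repressor induced by hypoxia, had 17, 7 and 14 counts against 571, 682 and 468 on Gm10197, a pooled density of 0.079%. Phb2, an inner mitochondrial membrane gene and mitophagy receptor, had 65, 23 and 29 counts against 6113, 5342 and 4544 on Gm15884, a density of 0.126%. Slc2a1, the glucose transporter gene, reached 0.219% of Gm12868. The densities of Bnip3 (0.0568% of Gm45507) and Ndrg1 (0.0315% of Gm17035) were lower than these, and that of Hif1a (0.268% of Gm15283) was slightly above. The 5 pairs with the higher value on the listed gene were Car9, Elob, Sqstm1 and both pairs of Usp30.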

How the data were processed

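The authors deposited whole fragment counts. Per the file headers, STAR alignments to mm10 were counted over GENCODE vM13 exons by featureCounts 1.4.6-p4 with strand setting 1 and both mates mapped, and the sources used here give no version of the aligner. Symbols came from GENCODE vM21, and 224 of 50600 identifiers had none. From these counts, TPM and counts per kb were computed with scipy 1.17.1, numpy 2.4.6 and pandas 2.3.3 under Python 3.11.15. Libraries were compared with edgeR 4.0.16 in R 4.3.3 (TMM, mean count of 10 or more, Benjamini-Hochberg at 0.05) and levels with limma 3.58.1 on log2(TPM + 0.1) for genes with 3 or more counts in all. DESeq2 1.42.0, size factors, count filters, added counts, a fit on genes without opposite-strand exons, and adding replicate 2 or leaving out a library were the alternatives. Figures were drawn with matplotlib 3.10.9.

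Members and lists were chosen with earlier results of these data known. Named were all members, the genes opposite them, and of each list the 4 highest by TPM, those called apart in a library and the 2 highest without a partner, besides preset markers and the nearest genes and pairs. Arnt, Vhl, Hif3a, Egln1, Higd1a, Atg13, Ndrg3, Calcoco2, Phb2, Mxi1 and Slc2a1 were named after their values were seen. Results for a few preset markers are not reported here. Replicate 2, with 5016 counts, had a floor of 598 CPM.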

Additional observations from a re-analysis of the deposited data

Results flagged for a closer look

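Replicate 2, which was left out of the main levels and tests, held counts above the floor for 1 gene described above. Gm15283, opposite Hif1a, had 8 counts there, above the floor of 3 counts. This was 1595 CPM, against 4428 to 5904 CPM in replicates 1, 3 and 4. Hif1a had 0 counts, and Gm45507 with 3 and Gm17035 with 1 did not exceed the floor. Hif1a stood at 31.6 to 67.1 CPM in replicates 1, 3 and 4, under the floor of 598 CPM in replicate 2. The 8 against 0 counts therefore add nothing on the contrast at this locus.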

How the results depend on the processing

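No tested member's difference in replicate 3 changed sign under any setting compared. DESeq2 gave no adjusted p-value for Ndrg1, Bnip3l and Egln3 and is not compared for them in this section. DESeq2's size factors moved the median log2 difference of all genes in replicate 3 from -0.11 to -0.01. Against 1051 genes called there (193 higher, 858 lower), they gave 591 (212 and 379), DESeq2 56 with 3489 adjusted p-values not given, and the fit on genes without opposite-strand exons 157 (138 and 19). Against 2 in replicate 1, a mean count of 1 or more gave 0 (98 genes at an unadjusted p under 0.05) and the fit without opposite-strand exons 0 (27). Against 3 in replicate 4, DESeq2 gave 0 (10 at an unadjusted p under 0.05) and that fit 0 (43). Leaving out a library left 2, with no residual degrees of freedom and no count.

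Against 6155 genes above 1 TPM, replicate 2 gave 1895, and leaving out a library 4927 to 6949. Against 1187 below, a pseudocount of 1 gave 2273, no count filter 2854, TPM among genes without opposite-strand exons 0 (also 0 at an unadjusted p under 0.05, limma), replicate 2 gave 1879 and leaving out a library 713 to 761. With replicate 2 the log2 ratio was -9.25 for Bnip3 to Gm45507 and -10.14 for Ndrg1 to Gm17035, and leaving out a library gave -10.89 to -10.29 and -12.04 to -11.07. Of the other 77 values for single genes, 55 held, 13 lost a call and 9 moved by more than their spread or SE. Tested differences held if they kept their direction and their side of the threshold, and levels if they stayed within their spread. Log2 differences with a library left out have no p-value and held if they stayed within the SE of the main value. Among the 55, the uncalled log2 difference of Bnip3l went from -1.16 to -0.33 in the fit without opposite-strand exons; the cause was not tested. No paired analysis was possible because all libraries form a single group. Counts of 5 to 37 limit Bnip3, Ndrg1, Bnip3l and Egln3.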
